A study of Mus musculus with 11 samples.

Results

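Mitochondrial ribosomal protein genes were followed in the hippocampus of adult mice whose mothers had received particulate matter into the nose during pregnancy. The members were all rows of the count files whose symbol reads Mrpl (large subunit) or Mrps (small subunit) followed by a number and at most 1 letter. This gave 77 of 24421 gene rows, 48 Mrpl and 29 Mrps, and all 77 were among the 14982 genes with enough counts to be tested. In the PM group, 200 µg/kg of particulate matter was given intranasally to pregnant mice at gestational days 9, 12 and 15, and in the vehicle group normal saline took its place. Pups were born on day 21 and the hippocampus was taken at 14 to 18 weeks of age. There were 6 PM and 5 vehicle libraries of RNA from whole tissue. The labels give neither a mouse strain nor the sex of the offspring, and leave unsaid whether each library stands for an animal or litter of its own, so a p-value here weighs the spread among libraries, part of which may be technical.

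The mitochondrial ribosome translates the few messages encoded in mitochondrial DNA, all of which are subunits of the respiratory chain and of ATP synthase. Its RNA comes from the mitochondrial genome, but its proteins are encoded in the nucleus, made in the cytosol and imported. Some of them descend from bacterial ribosomal proteins and others are found only in mitochondrial ribosomes, and hippocampal neurons, with their high demand for ATP, depend on this system.

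The libraries came in 2 sets, one holding PM and vehicle replicates 1 to 3 and a second holding PM replicates 4 to 6 with vehicle replicates 4 and 5, and the set was a term in the fit behind the values given here unless said otherwise. Counts assigned to genes ran between 10938521 and 17763893 per PM library and between 6012116 and 12496651 per vehicle library. Reads assigned to no annotated feature made up 18.8% to 34.0% of a PM library and 60.9% to 62.0% of a vehicle library. The ribosomal RNA precursor Rn45s took 4.01% to 17.0% of gene counts in PM libraries and 0.792% to 2.17% in vehicle libraries. These differences between the libraries run with the treatment, and their part in the results below was not tested. All 10 hippocampal neuron markers were detected in the vehicle libraries. In whole tissue, fewer cells of a type and less RNA per cell cannot be told apart.

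Most mitochondrial ribosomal protein genes were higher after prenatal PM. At an adjusted p under 0.05 in edgeR's quasi-likelihood test, 65 of the 77 were higher, where 32.7% of all tested genes were, and 3 were lower, where 36.4% of all tested genes were. The median log2 fold change of the 77 genes was 0.94, a fold of 1.92, beside a median of -0.04 over all tested genes. In 35 of the 77 the rise exceeded 2-fold, as in 11.6% of all tested genes. In 56 of them every PM library lay above every vehicle library, which held for 24.3% of all tested genes. Added up, the 77 genes reached 2194, 2527, 2887, 2203, 2104 and 2137 CPM (counts adjusted for the depth and composition of each library) in PM replicates 1 to 6, against 1361, 1379, 1351, 1320 and 1360 CPM in vehicle replicates 1 to 5. The vehicle libraries lay close together, the PM libraries of the first set were spread more widely, and the groups did not overlap. PM replicate 3 had the highest PM value in 64 of the 77 genes. The genes sit on 17 chromosomes, with at most 10 on one.

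**Figure D1:**
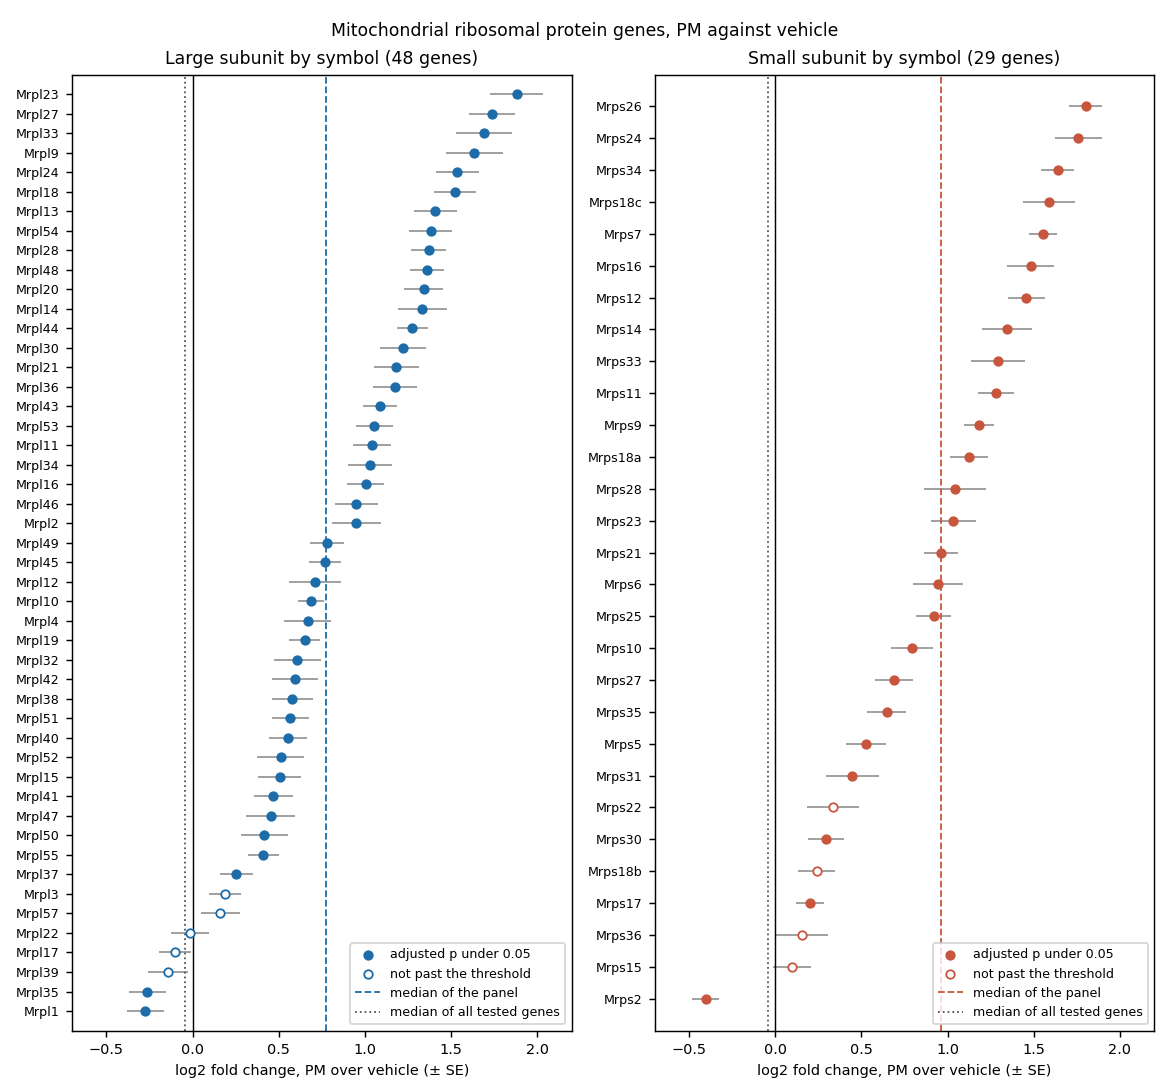
Log2 fold change of each mitochondrial ribosomal protein gene in PM over vehicle libraries, with its standard error as a bar, for 48 large subunit genes at left and 29 small subunit genes at right, ordered by size. Filled points passed an adjusted p of 0.05, the dashed line is the median of the panel (0.77 at left, 0.96 at right) and the dotted line the median of all tested genes (-0.04). Most filled points lie right of 0, and the 3 filled points left of it are Mrpl1, Mrpl35 and Mrps2.

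In the large subunit the largest rises were in genes for core proteins with bacterial relatives. Mrpl23, whose protein lines the mouth of the tunnel through which new proteins leave, had 14.2, 15.3 and 25.7 CPM (lowest, median and highest) in PM libraries, against 4.51, 4.71, 5.06, 4.90 and 5.06 CPM in vehicle libraries. The lowest PM library was well above the highest vehicle library, and the log2 fold change was 1.88 ± 0.15 (SE; edgeR adjusted p = 1.68e-07). Mrpl27, whose bacterial relative reaches into the peptidyl transferase centre, had 28.1, 31.8 and 48.6 CPM in PM libraries, against 12.4, 10.05, 11.4, 7.68 and 11.6 CPM in vehicle libraries. No value was shared between the groups, and the log2 fold change was 1.74 ± 0.13 (edgeR adjusted p = 8.81e-08). Mrpl33, a small protein near the tRNA exit site, followed at 1.69, Mrpl9, which in bacteria sits at the foot of the L1 stalk, at 1.63, and Mrpl24, an assembly and exit tunnel protein in bacteria, at 1.54. All 5 had every PM library above every vehicle library. At the other end of the genes that passed, Mrpl50 rose by 0.42, Mrpl55 by 0.41 and Mrpl37 by 0.25 on the log2 scale. For Mrpl37 the PM libraries had 30.9, 32.4 and 40.9 CPM and the vehicle libraries 28.3, 27.7, 31.4, 25.8 and 27.8 CPM. The groups overlapped there, and the edgeR adjusted p was 0.0295. Without vehicle replicate 1, 2, 4 or 5, or PM replicate 2 or 4, Mrpl37 no longer passed, and over all single libraries left out its adjusted p ran from 0.0068 to 0.0947.

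In the small subunit the largest rise was in Mrps26, a protein found only in mitochondrial ribosomes. It had 51.1, 54.4 and 59.2 CPM in PM libraries, against 15.9, 16.9, 15.0, 18.1 and 13.1 CPM in vehicle libraries. The PM values were tight and stood far above the vehicle values, with a log2 fold change of 1.80 ± 0.10 (edgeR adjusted p = 5.09e-09). Mrps24, which takes the place of bacterial S3 where messages enter, had 21.5, 25.8 and 39.5 CPM in PM libraries, against 8.16, 8.05, 9.04, 8.17 and 8.90 CPM in vehicle libraries. Its lowest PM value was above all vehicle values, and its log2 fold change was 1.76 ± 0.14 (edgeR adjusted p = 1.03e-07). Mrps34, which in humans is needed for a stable small subunit, rose by 1.64, Mrps18c by 1.59 and Mrps7, whose bacterial relative starts the assembly of the head, by 1.55, each without overlap between the groups. The smallest rises that passed were 0.45 in Mrps31, 0.29 in Mrps30 and 0.20 in Mrps17, a relative of a bacterial protein that binds the RNA early in assembly. Mrps17 had 32.1, 33.2 and 34.7 CPM in PM libraries and 26.0, 28.5, 26.0, 29.7 and 33.4 CPM in vehicle libraries. Its PM values were narrow and its highest vehicle library lay among them (edgeR adjusted p = 0.0422). The call of Mrps17 was lost without any 1 of PM replicates 1 to 4 or vehicle replicates 1 to 4 (adjusted p up to 0.109), that of Mrps30 without PM replicate 3 or vehicle replicate 1 or 3 (up to 0.0758), and that of Mrps31 without vehicle replicate 1 or 2 (up to 0.0583).

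**Figure D2:**
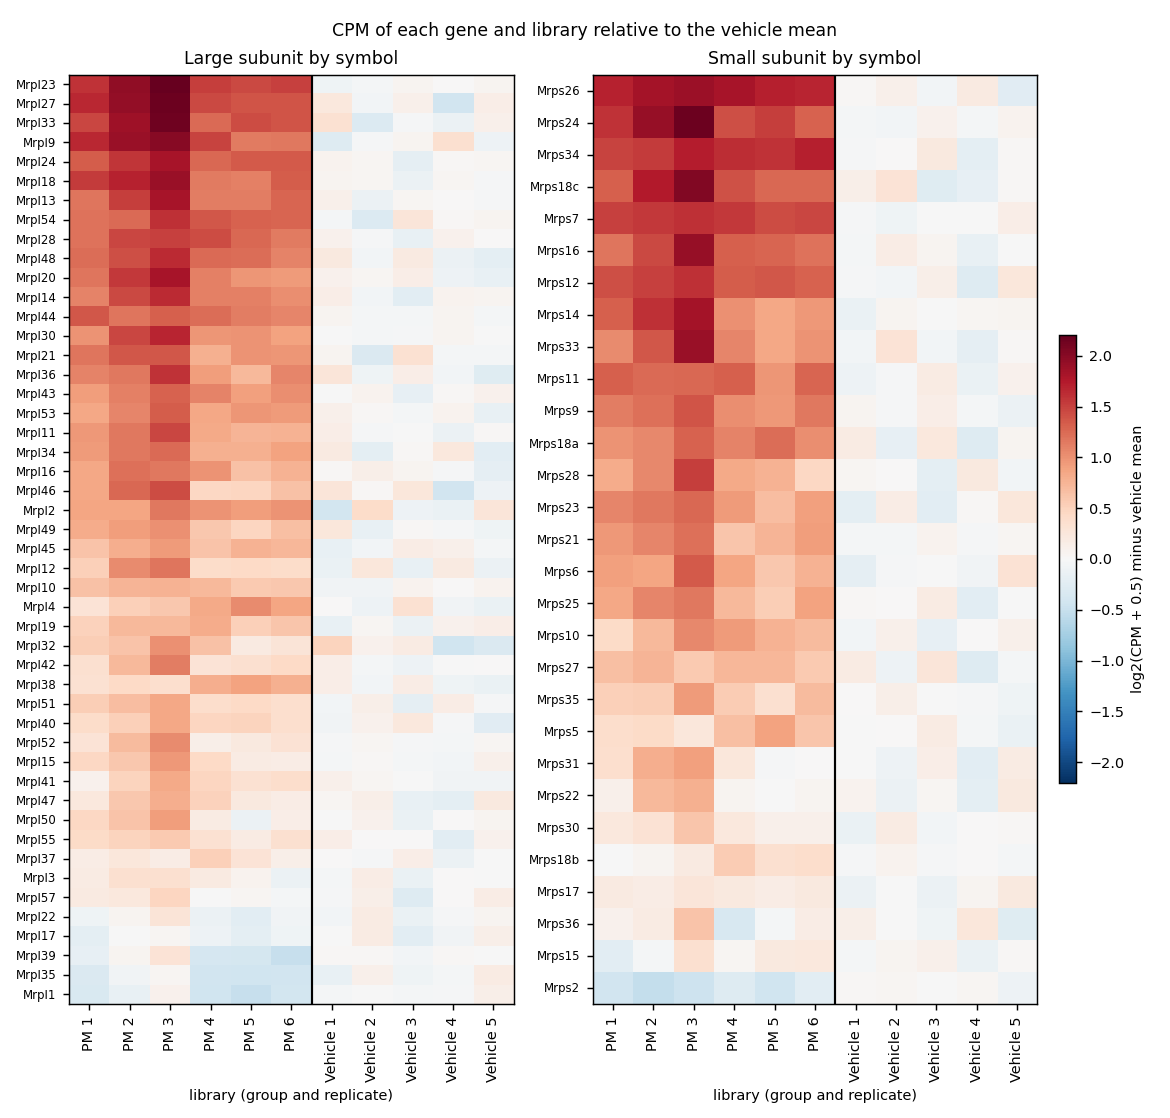
Each cell is the log2 of CPM plus 0.5 of 1 gene in 1 library minus the mean of the vehicle libraries, PM replicates 1 to 6 left of the black line and vehicle replicates 1 to 5 right of it, large subunit genes at left and small subunit genes at right in the order of their fold change. Most PM cells are red, most of all in replicate 3, and vehicle cells are pale throughout.

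The genes of the S18 family did not move alike. Mammals have a set of 3 of them, each with its own place in the ribosome, and despite its symbol Mrps18a is built into the large subunit. Mrps18c rose by 1.59 and Mrps18a by 1.13 on the log2 scale (edgeR adjusted p = 6.32e-07 and 8.69e-07). Mrps18b had 11.1, 13.6 and 16.8 CPM in PM libraries, against 10.9, 11.8, 11.03, 11.3 and 10.9 CPM in vehicle libraries. The vehicle values reach into the low end of the PM values, and its log2 fold change of 0.24 did not pass (edgeR adjusted p = 0.0597). Differences between these 3 fold changes were not tested.

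The genes that fell were Mrps2, Mrpl1 and Mrpl35. Mrps2, the relative of a bacterial protein that joins the small subunit late, had 25.7, 27.5 and 31.5 CPM in PM libraries, against 37.9, 38.1, 37.1, 38.2 and 34.5 CPM in vehicle libraries. Every PM library was below every vehicle library, which held in this direction for 28.1% of all tested genes, and the log2 fold change was -0.40 ± 0.08 (edgeR adjusted p = 0.000488). Mrpl1, the protein of the mobile stalk by which spent tRNA leaves, had 16.5, 18.1 and 25.3 CPM in PM libraries, against 22.8, 23.3, 23.0, 23.0 and 25.7 CPM in vehicle libraries. Only PM replicate 3 reached the vehicle values, and the log2 fold change was -0.27 ± 0.11 (edgeR adjusted p = 0.0375). Mrpl35, a relative of bacterial L35, had 25.6, 26.8 and 35.8 CPM in PM libraries, against 31.0, 37.6, 32.6, 33.7 and 39.3 CPM in vehicle libraries. Its groups overlapped through 2 of the PM libraries of the first set, and its log2 fold change was -0.26 ± 0.11 (edgeR adjusted p = 0.0451). The calls of Mrpl1 and Mrpl35 were lost with DESeq2, among others, and their direction turned in the first set alone and with trends of transcript length and GC content removed, where both stood at 0.04. That of Mrps2 held in every alternative run. Leaving out PM replicate 1, 4, 5 or 6 or vehicle replicate 4 or 5 left 1 lower gene, Mrps2, and over all single libraries left out the adjusted p ran from 0.00388 to 0.166 in Mrpl1 and from 0.0125 to 0.205 in Mrpl35. Mrps2 and Mrpl1 are named here after their values were seen.

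For 9 genes the difference did not pass the threshold, with log2 fold changes between -0.14 and 0.34. They were Mrpl3, Mrpl17, Mrpl22, Mrpl39 and Mrpl57 of the large subunit and Mrps15, Mrps18b, Mrps22 and Mrps36 of the small. Mrpl17 and Mrpl22 belong to the exit tunnel and Mrpl3 to the surroundings of the peptidyl transferase centre, so genes for the exit tunnel include both the largest rise, Mrpl23, and differences that did not pass. Mrpl22 had 11.3, 12.6 and 16.4 CPM in PM libraries, against 12.8, 15.1, 12.0, 13.1 and 14.0 CPM in vehicle libraries. These ranges lie on each other, and the 95% interval of its log2 fold change ran from -0.23 to 0.20. Mrps36, now counted as a part of the 2-oxoglutarate dehydrogenase complex and absent from solved ribosomes, had a log2 fold change of 0.16 with an interval from -0.14 to 0.45.

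Promoters of 5 of these genes are shown because they are the rises and falls above and because the letters bound by NRF1, GABPA and YY1, regulators of nuclear genes for mitochondria, occur in some of them and not in others. Each is the RefSeq window of 300 bases around the annotated start (build GRCm38.p6), read 5′ to 3′ on the strand of the gene. Capitals mark matches on either strand to GCGC and GCGC with any 2 bases between them (NRF1), CCGGAAGT (GABPA and other ETS factors), AAGATGGC (YY1) or CCAAT (NFY). The window of Mrps26 is chr2:130563507-130563806 on the plus strand, that of Mrpl27 chr11:94653541-94653840 on the plus strand, that of Mrps24 chr11:5707652-5707951 on the minus strand, that of Mrpl35 chr6:71823735-71824034 on the minus strand and that of Mrps2 chr2:28467816-28468115 on the plus strand.
Mrps26: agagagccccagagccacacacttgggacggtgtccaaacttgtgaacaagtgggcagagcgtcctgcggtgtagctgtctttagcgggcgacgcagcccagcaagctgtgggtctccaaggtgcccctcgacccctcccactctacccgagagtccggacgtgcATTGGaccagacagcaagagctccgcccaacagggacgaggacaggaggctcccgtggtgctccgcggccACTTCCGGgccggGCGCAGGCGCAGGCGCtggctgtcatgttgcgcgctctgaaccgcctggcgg
Mrpl27: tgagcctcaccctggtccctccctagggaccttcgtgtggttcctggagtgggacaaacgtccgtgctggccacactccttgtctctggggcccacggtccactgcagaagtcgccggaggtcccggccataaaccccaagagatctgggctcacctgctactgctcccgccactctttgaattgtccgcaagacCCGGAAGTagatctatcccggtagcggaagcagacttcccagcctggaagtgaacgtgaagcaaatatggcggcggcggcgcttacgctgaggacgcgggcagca
Mrps24: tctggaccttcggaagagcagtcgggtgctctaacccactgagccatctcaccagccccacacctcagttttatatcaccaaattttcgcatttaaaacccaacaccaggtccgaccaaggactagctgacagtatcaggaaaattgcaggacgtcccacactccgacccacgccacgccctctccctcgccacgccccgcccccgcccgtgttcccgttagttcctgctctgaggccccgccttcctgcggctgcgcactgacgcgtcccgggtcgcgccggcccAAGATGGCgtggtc
Mrpl35: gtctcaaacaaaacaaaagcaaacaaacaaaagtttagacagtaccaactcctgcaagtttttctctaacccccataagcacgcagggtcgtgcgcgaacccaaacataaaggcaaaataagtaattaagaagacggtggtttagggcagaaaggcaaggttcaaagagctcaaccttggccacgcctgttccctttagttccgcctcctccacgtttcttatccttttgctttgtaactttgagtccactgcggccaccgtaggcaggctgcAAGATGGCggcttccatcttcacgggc
Mrps2: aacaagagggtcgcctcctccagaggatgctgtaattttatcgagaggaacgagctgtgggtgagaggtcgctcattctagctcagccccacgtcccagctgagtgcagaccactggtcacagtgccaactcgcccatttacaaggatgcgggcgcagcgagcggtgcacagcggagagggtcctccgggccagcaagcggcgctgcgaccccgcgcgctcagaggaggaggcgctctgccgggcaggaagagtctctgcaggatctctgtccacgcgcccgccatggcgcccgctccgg
In Mrps26 the capitals are, from the left, an NFY match that begins at base -85 from the start, a GABPA match at -15 and a pair of overlapping NRF1 matches at -2 and 5. In Mrpl27 a GABPA match begins at -55. Mrps24, which rose, and Mrpl35, which fell, both carry the YY1 letters just downstream of the start at 37 and 24. None of these letters occurs in the window of Mrps2, nor in those of Mrpl23 and Mrpl1.

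Windows were found for 68 of the 77 genes, 74 in all. The YY1 letters were in 16.2% of these windows, 3.89% of those of tested genes and 2.75% of all windows in the table. The GABPA letters were in 16.2%, 6.84% and 3.89%, the NRF1 letters in 18.9%, 11.8% and 6.23%, and CCAAT in 40.5%, 37.1% and 37.4%. By subunit, the NRF1 letters were in 11 of 47 large and 3 of 27 small subunit windows, and the YY1 letters in 6 of 47 and 6 of 27. Responses were also set side by side for genes with and without each motif. The median log2 fold change was 0.95 in the 12 genes with the YY1 letters and 0.95 in the 56 without, 1.07 in the 14 with the NRF1 letters and 0.93 in the 54 without, 1.22 in the 12 with the GABPA letters and 0.93 in the 56 without, and 0.92 in the 27 with CCAAT and 0.95 in the 41 without. Such a match is a description of the letters and was not tested as a site.

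Most genes of both subunits rose. By symbol, 41 of 48 large subunit genes rose, 2 fell and 5 did not pass, and 24 of 29 small subunit genes rose, 1 fell and 4 did not pass. Over all tested genes 32.7% rose and 36.4% fell. The median log2 fold change was 0.96 in the small subunit, over a range of -0.40 to 1.80, and 0.77 in the large, over a range of -0.27 to 1.88. Small minus large this was 0.19, a difference that became -0.02 once trends with transcript length and base composition were removed and 0.02 in the second set alone. Rises over 2-fold made up 14 of 29 small and 21 of 48 large subunit genes, and 11.6% of all tested genes. Placing each gene by where its protein sits, with Mrps30 and Mrps18a in the large subunit and Mrps36 in none, gave medians of 1.00 over 26 small and 0.77 over 50 large subunit genes.

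Within each library the balance of the subunits was compared through their summed CPM. The 29 small subunit genes summed to 765, 850, 970.0, 777, 744 and 770.2 CPM in PM replicates 1 to 6, against 433, 446, 449, 419 and 448 CPM in vehicle replicates 1 to 5. The 48 large subunit genes summed to 1429, 1677, 1917, 1426, 1360 and 1367 CPM in PM libraries, against 928, 933, 903, 900.5 and 913 CPM in vehicle libraries. Large over small was 1.87, 1.97, 1.98, 1.83, 1.83 and 1.77 in PM libraries and 2.14, 2.09, 2.01, 2.15 and 2.04 in vehicle libraries. All PM ratios were below all vehicle ratios, although the highest PM value and the lowest vehicle value were close. Counts depend on transcript length as well as on molecules, so the ratio is one of reads and not of proteins.

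**Figure D3:**
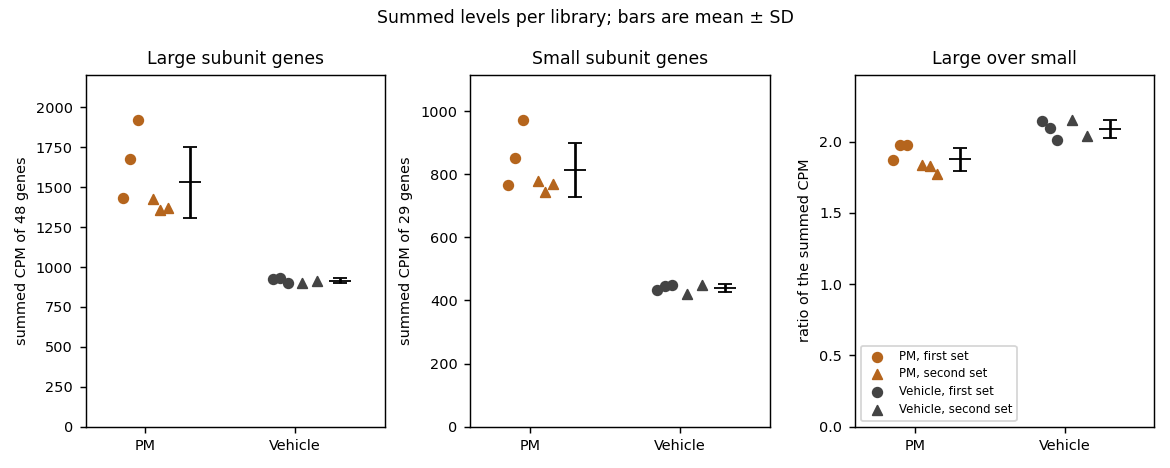
Summed CPM of the 48 large subunit genes at left and of the 29 small subunit genes in the middle, and their ratio at right, for each PM and vehicle library, with circles for the first set and triangles for the second, and a bar for mean ± SD of 6 PM and 5 vehicle libraries. Both sums are higher in PM libraries without overlap, and the ratio is lower in all PM libraries (1.77 to 1.98) than in vehicle libraries (2.01 to 2.15).

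The genes were also grouped by the evolutionary origin of the protein. Of 46 genes with a bacterial relative 39 rose and 3 fell, where 32.7% and 36.4% of all tested genes did, with a median log2 fold change of 1.03. Of 30 genes for mitochondria-specific proteins 26 rose and none fell, while 4 did not pass, with a median of 0.67. With length and GC trends removed these medians were 0.68 and 0.49. In the large subunit the medians were 1.02 for 30 genes with a bacterial relative and 0.59 for 20 mitochondria-specific genes, and in the small subunit 1.11 for 16 and 0.80 for 10. With the trends removed they were 0.70 and 0.47 in the large subunit, and close together at 0.68 and 0.63 in the small. These are descriptions, and no test of the difference was made. Mrps26, mitochondria-specific and near the top, and Mrps2, with a bacterial relative and the lowest of all, show how far the classes overlap.

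Per length of transcript, the genes covered a wide range of levels. In RPKM, reads scaled for transcript length and library size, the highest vehicle means in the large subunit were 45.2 for Mrpl42, 44.1 for Mrpl41 and 42.2 for Mrpl52, and the lowest were 2.85 for Mrpl47, 4.13 for Mrpl32 and 4.45 for Mrpl19. In the small subunit the highest were 41.0 for Mrps21, 32.2 for Mrps15 and 23.8 for Mrps17, and the lowest 2.44 for Mrps35, 3.07 for Mrps16 and 3.24 for Mrps25. Among PM means, Mrps21 had 79.1, Mrpl42 67.8 and Mrpl20, named after its values were seen, 66.8 RPKM. The standard deviation of log2 RPKM over the 77 genes was 1.01 to 1.09 in PM libraries and 0.937 to 0.961 in vehicle libraries. The groups did not overlap in this spread, which was wider in PM libraries. Without scaling for length the order turned, and the standard deviation of log2 CPM was 0.595 to 0.632 in PM libraries and 0.713 to 0.763 in vehicle libraries. Annotated transcripts with long 3′ ends, such as the 7300 bases of Mrpl17 and the 6073 of Mrps25, make these levels uncertain.

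Each set of libraries was also compared within itself. In the first set 67 of the 77 genes rose and 1 fell, where 32.1% and 38.9% of all tested genes did, with a median log2 fold change of 0.99. In the second set 57 rose and 4 fell, where 32.3% and 32.5% of all tested genes did, with a median of 0.84. Rises in each of the sets were called for 55 genes, as 23.1% of all tested genes did, and none was called in opposite directions, as 3.41% of all tested genes were. The counts of called genes rest on 3 PM against 3 vehicle libraries in the first set and 3 against 2 in the second.

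For some genes the PM effect differed between the sets. On the signed log2 scale it was higher in the second set for 3 genes, as in 17.5% of all tested genes (edgeR). It was lower there for 6 genes, as in 12.1% of all tested genes. A lower signed effect can be a smaller rise or, as in Mrpl39 below, a fall in the second set. Mrpl38, a protein near the central protuberance, had 31.5, 33.8 and 32.1 CPM in PM libraries of the first set, against 27.6, 23.7 and 27.9 CPM in its vehicle libraries. In the second set Mrpl38 had 43.6, 46.1 and 43.1 CPM in PM libraries, against 23.2 and 22.3 CPM in vehicle libraries. The PM libraries averaged 32.5 CPM in the first set and 44.3 CPM in the second, and the vehicle libraries 26.4 and 22.8 CPM. Both groups thus differed between the sets, in opposite directions. The effect on Mrpl38 differed by 0.67 ± 0.15 on the log2 scale, second minus first (edgeR adjusted p = 0.00381). Mrpl4, a tunnel protein, differed in the same direction by 0.65, as did Mrps5, a gene named after its values were seen. In the other direction, Mrps14 rose by 1.66 in the first set and by 0.92 in the second, a difference of -0.74 ± 0.21 (edgeR adjusted p = 0.0133). Mrpl9 differed by -0.79 and Mrpl50 by -0.67. Mrpl39, a relative of threonyl-tRNA synthetase, had 24.6, 29.1 and 34.5 CPM in PM libraries of the first set, against 28.4, 28.2 and 26.8 CPM in its vehicle libraries. In the second set it had 21.4, 21.3 and 19.5 CPM in PM libraries, against 28.4 and 27.7 CPM in vehicle libraries. Its first set groups overlap, its second set groups do not, and the difference of -0.51 passed (edgeR adjusted p = 0.0406). How many genes had a lower signed effect in the second set depended on single libraries. It was 22 without PM replicate 1, 10 without PM replicate 6, 3 without PM replicate 2, 3 or 5 or vehicle replicate 3, 2 without vehicle replicate 1 or 4 and 1 without vehicle replicate 5.

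**Figure D4:**
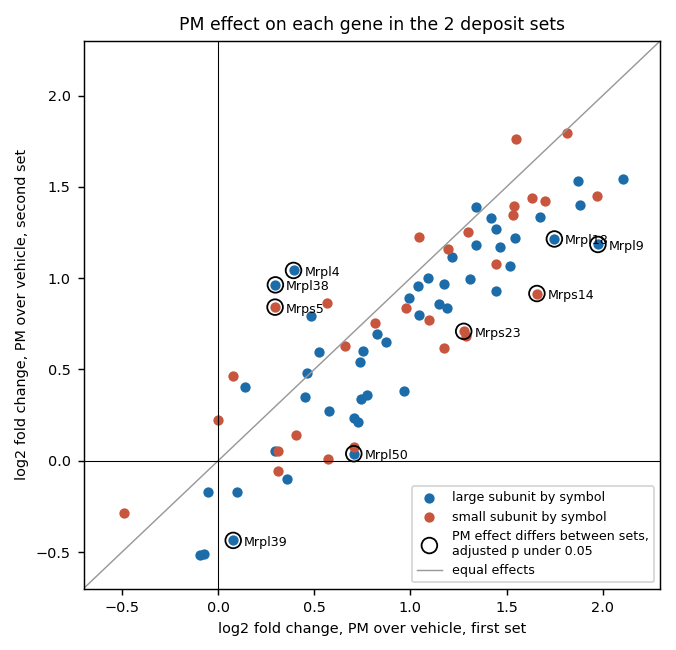
Log2 fold change of PM over vehicle in the first (horizontal) and the second set (vertical) for each of the 77 genes, blue for the large and red for the small subunit, with a grey line of equal effects. The 9 ringed genes have an effect that differs between the sets at an adjusted p under 0.05, and most points lie near or below the line, with medians of 0.99 in the first and 0.84 in the second set.

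Short transcripts were higher in PM libraries across the whole transcriptome, and mitochondrial ribosomal protein genes are short. Their median transcript length was 1226 bases, against 3066 over all tested genes with a length. When tested genes were cut into 5 equal bins by length, 58.0% of the shortest bin rose, with a median log2 fold change of 0.62. The 51 mitochondrial ribosomal protein genes in that bin had a median of 1.04, and 46 of them rose. In the next bins, by rising length, 8, 8, 8 and 2 of the genes had medians of 0.73, 0.51, 0.59 and 0.41, beside 0.31, 0.04, -0.23 and -0.84 over all tested genes of the same bin. Their median was above that of all genes of like length in each bin, the last with 2 genes. Across the 77 genes, which share libraries, Spearman's rho between log2 fold change and length was -0.32, with -0.47 in the large and -0.10 in the small subunit, beside -0.48 over all tested genes.

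Fold changes were therefore also computed after trends with transcript length and GC content had been removed from each library. Of the 77 genes 57 then rose and 7 fell, where 30.3% and 33.5% of all tested genes did, and the median log2 fold change was 0.55. Of the 65 genes that rose without this step 54 also rose with it. Mrps26 stood at 2.03 and was the largest, Mrpl23, the largest without the step, stood at 1.08, and Mrps25, with its long transcript, stood at 1.66, against 0.92 without the step. Mrpl37, Mrpl38 and Mrpl4 turned from higher to lower, at -0.47, -0.32 and -0.26. Mrpl17, the longest, moved upward, with 0.89 against -0.10. Mrps2 was lower under both, at -0.59 with the trends removed. The median was 0.55 in the small and 0.56 in the large subunit.

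**Figure D5:**
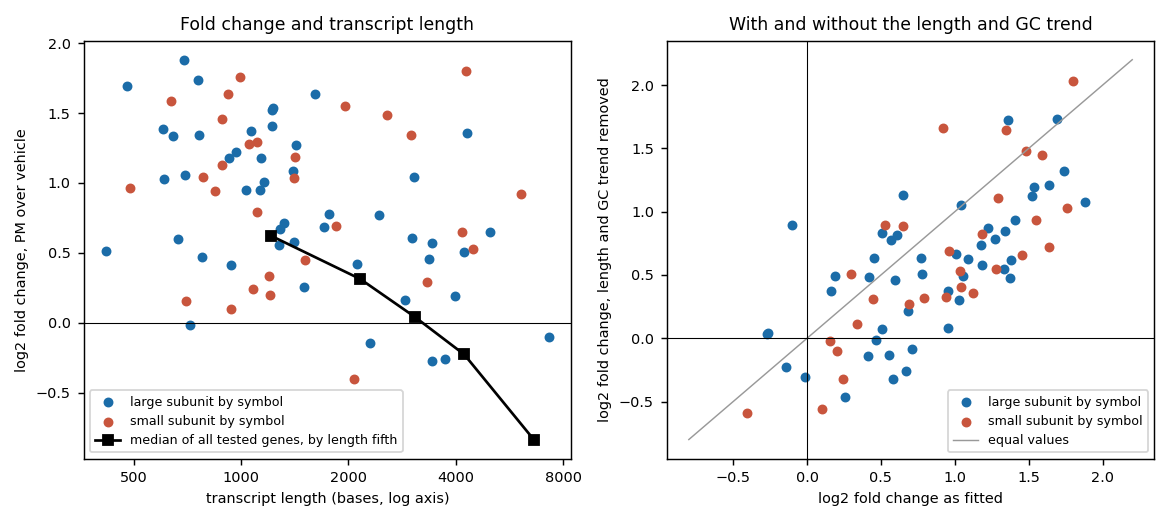
Left, log2 fold change of PM over vehicle against transcript length in bases on a log axis for each gene, with black squares for the median of all tested genes in each of 5 bins of length. Right, the log2 fold change with the length and GC trends removed against that without, with a line of equal values. Points at left lie mostly above the black line, and most points at right lie below the grey line but above 0, with a median of 0.55.

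Reads may be shared with neighbours. Exons of 25 of the 77 genes overlap an exon of another annotated gene, most of them on the opposite strand, and no source used here states which strand setting the counting had. Of these 25 genes 24 rose, with a median log2 fold change of 1.09. They include Mrpl27, Mrpl33, Mrpl9, Mrpl24, Mrps26, Mrps18c and Mrps7 of the large rises, and Mrps25 and Mrpl19. The shared exon bases were most in Mrps25 (3533, with Nr2c2) and Mrpl19 (1962, with Gcfc2), against 75 in Mrpl27 and 8 in Mrps26. The values of such genes are uncertain to that extent. Of the 52 without such overlap 41 rose and 3 fell, with a median of 0.72. Over all tested genes 32.7% rose and 36.4% fell. With length and GC trends removed the medians were 0.78 with such overlap and 0.48 without.

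Other genes of the mitochondrial translation system responded unevenly. Their counts stand beside the 32.7% of all tested genes that rose and the 36.4% that fell, or 30.3% and 33.5% with length and GC trends removed. Of 6 mitochondrial ribosome proteins without an Mrp symbol 5 rose, with a median log2 fold change of 0.86, among them Dap3, a GTP-binding protein of the small subunit, at 0.75 and Gadd45gip1, a large subunit protein, at 1.53. Of 24 factors that assemble the ribosome 13 rose and 4 fell, with a median of 0.44, and with trends removed 7 of 22 rose and 5 fell, with a median of 0.14. The pseudouridine synthase family member Rpusd4 rose by 1.28, and Rbfa, which binds the maturing small subunit, by 1.37. Of 15 translation factors and message regulators 3 rose and 3 fell, both smaller shares than among all tested genes, with a median of -0.01. The elongation factor Tufm averaged 42.7 ± 2.98 CPM in PM libraries and 15.7 ± 2.02 CPM in vehicle libraries (SD, n = 6 and 5), a log2 fold change of 1.44. Its exchange factor Tsfm rose by 1.21 and Slirp, an RNA-binding partner of Lrpprc, by 2.22. Gfm1, the translocation factor, averaged 31.0 ± 4.08 CPM in PM libraries and 53.3 ± 2.85 CPM in vehicle libraries, a log2 fold change of -0.77. The other 2 that fell, named after their values were seen, were Lrpprc and Gfm2, at -0.36 and -0.45.

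Of 17 mitochondrial aminoacyl-tRNA synthetases 9 rose and 4 fell, where 32.7% and 36.4% of all tested genes did, with a median of 0.34. With trends removed 8 rose and 2 fell, with a median of 0.19. Lars2, the leucyl enzyme, took 0.337% to 0.823% of all gene counts in PM libraries and 0.00136% to 0.00773% in vehicle libraries, and its log2 fold change of 7.73 stood apart from the rest, in the same libraries in which Rn45s was high. The part of ribosomal RNA reads in it was not tested. Of 11 genes for transcription and upkeep of mitochondrial DNA 5 rose and none fell, with a median of 0.21, and 6 did not pass. With trends removed 3 of 10 rose and 1 fell. Tfam, the packaging and transcription factor, rose by 0.74 and the polymerase Polg by 0.83. The 13 protein genes of mitochondrial DNA itself were looked up by their mt- symbols and were absent from the count files, so they were not analysed here.

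Among 9 regulators of nuclear genes for mitochondria 1 rose and 6 fell, where 32.7% and 36.4% of all tested genes did, with a median log2 fold change of -0.82. Ppargc1a, the coactivator PGC-1α, averaged 33.2 ± 6.53 CPM in PM libraries and 110.3 ± 5.90 CPM in vehicle libraries, a log2 fold change of -1.73. Gabpa averaged 24.6 ± 2.82 CPM in PM libraries and 46.2 ± 4.78 CPM in vehicle libraries, a log2 fold change of -0.90, and its partner Gabpb1 fell by 0.82. The nuclear receptor Esrra was the one that rose, with 47.0 ± 3.26 CPM in PM libraries and 17.1 ± 3.20 CPM in vehicle libraries, a log2 fold change of 1.47. Nrf1 and Yy1, named after their values were seen, had log2 fold changes of 0.12 and -0.10 and did not pass. With length and GC trends removed 2 rose and 6 fell, Ppargc1a stood at -0.81, Gabpa at -0.25 and Esrra at 0.75. Yy1 turned upward there and passed, at 0.42 (edgeR adjusted p = 0.000363), and Nrf1 stood at 0.09.

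As a scale for these numbers, 71 of 73 tested cytosolic ribosomal protein genes rose (median log2 fold change 1.81), where 32.7% of all tested genes did. Of 92 nuclear genes with respiratory chain symbols 82 rose (median 1.06). These were chosen by symbol (Nduf, Sdh, Uqcr, Cox4 to Cox8 and Atp5), which takes in ATP synthase genes and can take in assembly factors. The median of the mitochondrial ribosomal protein genes, 0.94, was nearer to that of the respiratory chain. Transcripts of the cytosolic and respiratory chain genes were shorter, with median lengths of 835 and 875 bases against 1226. With length and GC trends removed the medians were 1.41 for the cytosolic, 0.70 for the respiratory chain and 0.55 for the mitochondrial ribosomal protein genes.

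Summed levels of neuron, astrocyte and microglia markers did not overlap between the groups, and those of oligodendrocyte, endothelial and choroid plexus markers did. Each count of markers stands beside the 32.7% of all tested genes that were higher and the 36.4% that were lower. Hippocampal neuron markers summed to 991 to 1129 CPM in PM libraries and 1261 to 1442 CPM in vehicle libraries, with 5 of 10 higher and 3 lower, or 2 higher and 4 lower with trends removed. The median log2 fold change of these neuron markers was 0.20, although their sum was lower in PM libraries, and -0.37 with trends removed. Zbtb20, named after its values were seen and with a transcript of 26901 bases, averaged 62.6 CPM in PM and 314 CPM in vehicle libraries. Its log2 fold change was -2.45, or -0.38 with trends removed, where it did not pass. Astrocyte markers summed to 3642 to 6527 CPM in PM libraries and 7206 to 7628 CPM in vehicle libraries, with 4 of 8 higher and 2 lower. The median log2 fold change of the astrocyte list was 0.55, opposite in sign to its sum. In that sum the glutamate transporter Slc1a2, with a long transcript, averaged 2607 CPM in PM libraries and 5757 CPM in vehicle libraries. Slc1a2 was named after its values were seen. With trends removed Slc1a2 stood at 0.18, against -1.16 without, and 5 astrocyte markers were higher and none lower. Microglia markers summed to 264 to 390.0 CPM in PM libraries and 195 to 221 CPM in vehicle libraries, with 6 of 8 higher and none lower, and 2 that did not pass. Oligodendrocyte markers, with 5 of 6 higher, summed to 4047 to 9299 CPM in PM libraries and 3734 to 4751 CPM in vehicle libraries. Endothelial markers, with 3 of 6 higher, summed to 114 to 225 CPM in PM libraries and 103 to 129 CPM in vehicle libraries. Choroid plexus markers, with 1 of 6 lower, summed to 33.0 to 2497 CPM in PM libraries and 72.7 to 1262 CPM in vehicle libraries. No marker of these lists was at 0 in all vehicle libraries. The part of cell composition in the rise of the mitochondrial ribosomal protein genes was not tested.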

How the data were processed

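The authors deposited whole-number counts per gene symbol and library, not normalized. The submitters' processing notes name HTSeq 0.9.1, STAR (no version), Trimmomatic 0.36, FastQC 0.11.9, Picard 2.9.2 and SAMtools 1.9, with mm10 and hg19 as builds. Per the labels' protocols, ribosomal RNA was depleted, while the molecule field names polyA RNA, so the selection is stated in 2 ways. HTSeq's summary rows entered neither library sizes nor tests.

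Counts were analysed in R 4.3.3 with edgeR 4.0.16. Genes were kept by filterByExpr (minimum count 10), libraries were scaled by TMM, and a robust quasi-likelihood fit held group and set, with Benjamini-Hochberg adjustment over all 14982 genes and a threshold of 0.05. A joint fit of group and set gave the effect within each set and its difference. Sets were read from library numbers that restart in the labels. DESeq2 1.42.0 was an alternative. For the fit with trends removed, smooth curves of log2 count on transcript length and GC content (splines, 5 df) were subtracted in each library for the 14424 genes with a length. Lengths are of the longest RefSeq-linked coding transcript of each gene in GENCODE M21 (GRCm38), to which 95.7% of symbols matched. Promoter windows and their sequences are RefSeq's (GRCm38.p6).

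The fewest counts for any of the 77 genes in a library were 73 to 179 in PM and 30 to 57 in vehicle libraries. Intervals are 1.96 standard errors wide on each side. The closest pair of libraries within a group differed by a chi-square of 2.01 per degree of freedom over genes with 20 or more counts, so none was merged. The scripts were tested on simulated data.

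The genes, companion lists and tests were chosen with earlier results of these data known. Named with values are genes that fell or did not pass (up to 10, largest p first), the 5 largest and 3 smallest rises per subunit, the 3 highest and 3 lowest levels per subunit, the 5 smallest p for the difference between sets, Mrps30 and the S18 genes, and up to 4 genes of smallest p per companion list. Values named outside this rule are said to be so.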

Additional observations from a re-analysis of the deposited data

Results flagged for a closer look

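In 4 genes 1 library stood far from the others of its group, by a test of its gap that marks about 1 in 20 groups by chance. The test was run on every named mitochondrial ribosomal protein gene in both groups, so a few such marks would arise by chance alone. Mrps16 had 31.1 CPM in PM replicate 3, where the next highest PM library had 22.5 CPM. Mrpl24 had 5.78 CPM in vehicle replicate 3, where the next lowest vehicle library had 6.87 CPM. Mrpl4 had 30.7 CPM in vehicle replicate 3, with 24.3 CPM next, and Mrpl1 had 25.7 CPM in vehicle replicate 5, with 23.3 CPM next.

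In 6 of the named genes the PM effect differed between the sets at an adjusted p under 0.05 in edgeR's joint fit. Of these, Mrpl38, Mrps14, Mrpl50, Mrpl9 and Mrpl4 were named for their small p in this same test. The count of 6 therefore follows largely from that choice. Among all 77 genes the signed effect was higher in the second set for 3, as in 17.5% of all tested genes. It was lower there for 6 of the 77, as in 12.1% of all tested genes. On the log2 scale, second set minus first, the difference was 0.67 in Mrpl38 and 0.65 in Mrpl4. The difference was -0.51 in Mrpl39, -0.67 in Mrpl50, -0.74 in Mrps14 and -0.79 in Mrpl9.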

How the results depend on the processing

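The number of mitochondrial ribosomal protein genes called higher stayed between 57 and 68 under all alternatives. The number called lower was 1 with DESeq2 size factors, with the DESeq2 test, with no filter on low counts, with the replicate block and in the first set alone, and 7 with length and GC trends removed. Leaving out single libraries gave 1 to 4 lower, 2 to 4 lower in the second set and small minus large medians of 0.15 to 0.30, the last without vehicle replicate 5. It gave a second set median of 0.75 to 0.86. Where 2 vehicle libraries stayed in the second set, 1 to 3 genes had a higher and 2 to 22 a lower signed effect there. A second set with 1 vehicle library takes its spread from the other groups.

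With the trends removed the median log2 fold change was 0.55 over all genes, 0.55 in the small and 0.56 in the large subunit, 0.64 in the first and 0.45 in the second set, and small minus large turned to -0.016. It was 0.016 in the second set alone. The first set alone gave 1.197 for the small and 1.02 for the large subunit. Scaling to total counts gave a second set median of 0.91. With trends removed 6 genes were lower in the first and 7 in the second set. A lower signed effect in the second set was found for 12 genes with DESeq2 size factors, 3 with total counts and 18 with no filter. The causes were not tested.

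Among named genes, signs turned with trends removed to -0.56 in Mrps15, -0.019 in Mrps36, 0.89 in Mrpl17, -0.32 in Mrps18b, 0.044 in Mrpl35, -0.14 in Mrpl55, -0.47 in Mrpl37, -0.011 in Mrpl41, -0.10 in Mrps17, -0.32 in Mrpl38, -0.26 in Mrpl4, 0.036 in Mrpl1 and 0.46 in the methionyl-tRNA synthetase Mars2. In the first set alone they turned to 0.20 in Mrpl22, 0.047 in Mrpl17, 0.18 in Mrpl39, 0.026 in Mrpl35 and 0.0046 in Mrpl1, and in the second set alone to -0.048 in Mrps36 and -0.093 in Mrpl57. Mrpl22, near 0, turned to 0.015 with DESeq2 size factors, 0.018 with the DESeq2 test and 0.081 with no filter, and ran from -0.087 to 0.038 over single libraries left out.

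Replicate numbers are shared by the groups, but same-numbered libraries did not deviate together (r from -0.18 to -0.005), and none correlated best with its own number. With the replicate block in place of the set, 61 of the 77 genes were higher and 1 lower, and 4318 and 4890 of all tested genes, against 4904 and 5450 without it. At the depth of the shallowest library, a count of 0 would allow up to 0.49 CPM, far below any value of these genes, for counting error only.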

Other observations

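A divergent neighbour, a protein-coding gene that starts head to head within 1000 bases, was present for 19 of the 77 genes (24.7%), against 10.03% of 13625 tested protein-coding genes. Among the 19 neighbours 11 were higher in PM libraries and 3 lower, where 32.7% and 36.4% of all tested genes were. Their median log2 fold change was 0.36. Mitochondrial ribosomal protein genes were not left out of the neighbours. By their RefSeq windows Mrps11 and Mrpl46, both higher, start head to head, so these counts can hold mitochondrial ribosomal protein genes themselves. Neighbours of other genes were not examined, and whether neighbours move with these genes was not tested. The mitochondrial ribosomal protein genes with such a neighbour had a median of 0.69, and those without one 0.98.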
